A study of Arabidopsis thaliana with 27 samples.

Results

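The comparison set the gox2 mutant of Arabidopsis thaliana against the line 35S::GOX2, both kept without Cd, and used 6 of the 27 arrays of the series: the 3 labelled as the control of atgox and the 3 labelled as the control of s35Sc. All 37118 features of the array, which represent 32627 loci, entered it. RNA of Col-0 seedlings was hybridized to single-color NimbleGen expression arrays, with WT, gox2 and 35S::GOX2 each sampled without Cd and after 100 μM Cd for 30 min or 24 h, in 3 arrays per group. By label, the gox2 arrays compared here hold RNA of an atgox line in the control condition. The label of these arrays names no gene number. From the study's design they were taken as the mutant gox2, the insertion line gox2-1, kept in Cd-free solution. By label, the 35S::GOX2 arrays hold RNA of an s35Sc line in the control condition, and this label names no driven gene. From the study's design they were taken as the GOX2 overexpression line, also in Cd-free solution. In it the 35S promoter, active in most plant tissues, drives GOX2. All groups were grown for 14 days and moved from solid to liquid medium, and each replicate pooled at least 5 seedlings, so the values describe pools and 1 line for each genotype. The WT controls, treated alike, are given beside them.

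Glycolate oxidase is a peroxisomal enzyme of photorespiration, the pathway that recovers carbon from the glycolate made when Rubisco fixes oxygen in place of CO2. It oxidizes glycolate to glyoxylate and releases H2O2, most of which catalase removes inside the peroxisome. GOX1 and GOX2 are the main leaf forms, GOX3 acts on lactate, and HAOX1 and HAOX2 prefer longer hydroxy acids. In plants, peroxisomal H2O2 is known as a signal that alters the transcription of stress and defense genes.

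The values are log2 normalized intensities, and differences are coded as gox2 minus 35S::GOX2, so a positive value is a higher level on the arrays labelled gox2. The log2 medians of the arrays as deposited lay between 10.02 and 10.17. The files hold no detection values. Separately, the precision is limited by the number of arrays. The median SD over features was 0.15 for the gox2 control arrays, 0.09 for the 35S::GOX2 control arrays and 0.10 for the WT control arrays. After each feature's mean was subtracted, the 35S::GOX2 control arrays correlated with each other at 0.85 to 0.91, and the gox2 control arrays at 0.22 to 0.66. Of the gox2 control arrays, replicate 1 was nearest to replicate 3 of 35S::GOX2 Cd 24 h (r = 0.72), and replicates 2 and 3 were each nearest to replicate 1 of gox2 Cd 24 h (0.70 and 0.69). These correlations are across features, which share their arrays, and describe likeness only. The gox2 control arrays lay on slide 3, and the 35S::GOX2 and WT control arrays on slide 1, so slide and line cannot be told apart here. Root genes were bright on all 9 arrays without Cd although the tissue label reads leaves: PYK10, a root beta-glucosidase, averaged 15.58 on the gox2 arrays and 15.68 on the 35S::GOX2 arrays.

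GOX2 (AT3G14415, chromosome 3), the gene that is disrupted in one line and overexpressed in the other, was high on the arrays labelled gox2 and low on the arrays labelled 35S::GOX2. On the gox2 control arrays it measured 14.16, 14.21 and 14.02. On the 35S::GOX2 control arrays it measured 9.79, 9.65 and 9.60. The WT control arrays gave 13.69, 13.77 and 13.72, near the gox2 arrays and far from the 35S::GOX2 arrays, and the groups did not overlap. The difference was 4.45 (SE 0.12, limma adjusted p = 8.0e-16), a fold of 21.9. The exact two-sided permutation test over the 6 arrays gave p = 0.1, the smallest p that 20 arrangements allow. GOX2 therefore goes against both labels as they were read from the study's design. The position of its probes relative to the insertion is not given in the sources used here. Every direction in what follows refers to the arrays as labelled.

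Under Cd at 30 min the order of the lines was the opposite, and GOX2 averaged 9.94 ± 0.14 (SD, n = 3) on the arrays labelled gox2 and 13.88 ± 0.17 on those labelled 35S::GOX2. At 24 h both lines were high, at 13.89 ± 0.18 and 14.21 ± 0.18. WT measured 10.30 ± 0.24 at 30 min and 13.67 ± 0.03 at 24 h. Across the 9 groups, 3 were thus low in GOX2 (35S::GOX2 control, gox2 Cd 30 min, WT Cd 30 min) and 6 were high.

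**Figure D1:**
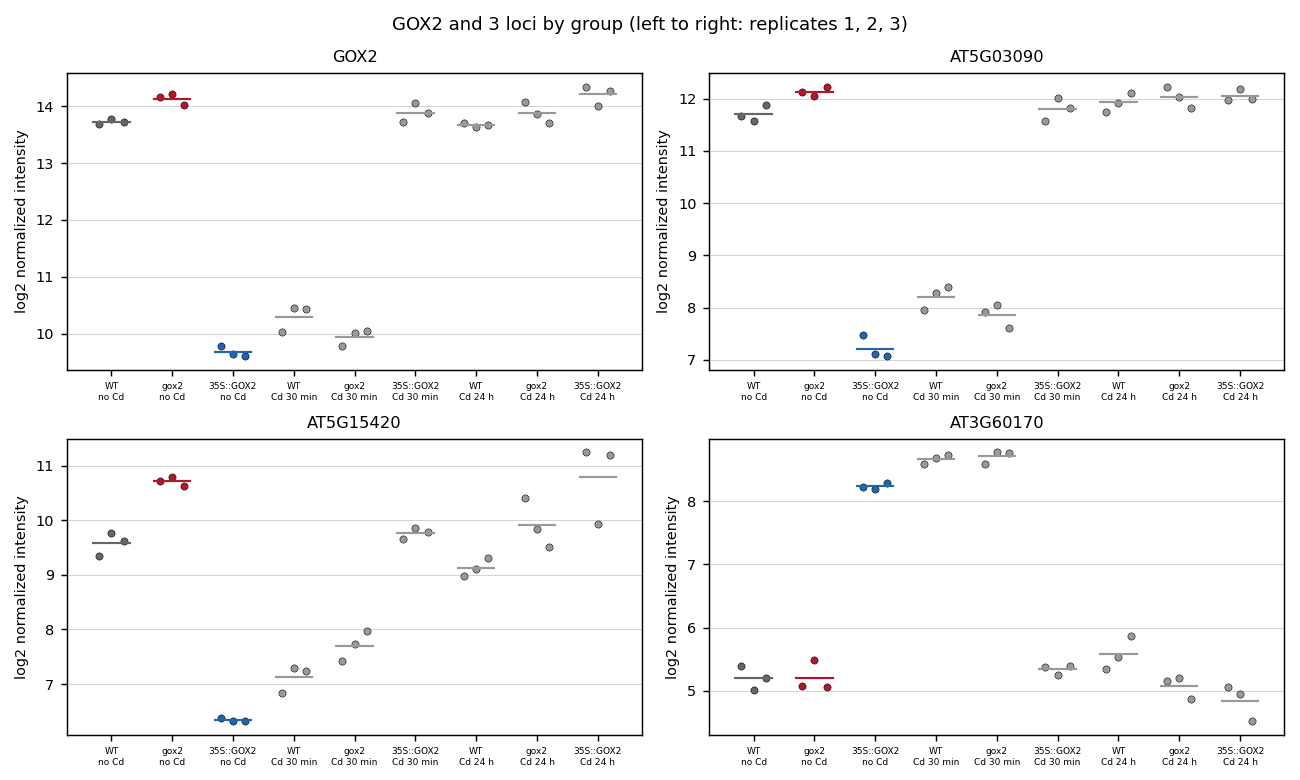
Each panel plots 1 locus, with log2 normalized intensity on the vertical axis and the 9 groups on the horizontal axis. Points are arrays in the order of replicates 1, 2 and 3, and bars are group means. GOX2, AT5G03090 and AT5G15420 were low and AT3G60170 was high on the arrays of 35S::GOX2 control, WT Cd 30 min and gox2 Cd 30 min.

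3 further loci among the largest differences were split over the 9 groups in the same way as GOX2. AT5G03090 measured 12.12, 12.06 and 12.22 on the gox2 control arrays and 7.47, 7.10 and 7.07 on the 35S::GOX2 control arrays, a difference of 4.92 (SE 0.15, limma adjusted p = 6.8e-15). AT5G15420 differed by 4.38 (adjusted p = 1.38e-09). The pseudogene AT3G60170 ran the opposite way, with 5.07, 5.49 and 5.06 against 8.22, 8.19 and 8.29, a difference of -3.03 (adjusted p = 3.88e-11). At 30 min of Cd the sign of the line difference turned for each of them, to -3.95, -2.06 and 3.37 in that order. The plot of GOX2 and these loci by group shows the shared split.

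The rest of the glycolate oxidase family differed little. GOX1, the neighbor of GOX2 on chromosome 3, measured 15.52, 15.41 and 15.36 on the gox2 control arrays and 15.17, 15.09 and 15.10 on the 35S::GOX2 control arrays, without overlap. Its difference was 0.31 (SE 0.06, limma adjusted p = 0.000884). GOX1 and GOX2 have similar sequences, so some of the signal of one may come from the other. HAOX2 was lower by a difference of -0.30 (adjusted p = 0.0353), a call that was lost without each of the 6 arrays in turn, with adjusted p up to 0.101. HAOX1 (-0.16, adjusted p = 0.106) and GOX3 (-0.20, adjusted p = 0.498) did not pass the threshold of an adjusted p under 0.05.

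Over all features, 10725 of 37118 (28.9%) passed the threshold in limma, of which 5727 (15.4%) were higher and 4998 (13.5%) lower on the arrays labelled gox2. Their median absolute difference was 0.52, and 1504 differed by at least 1. The count was 6050 without replicate 3 of 35S::GOX2 control and 4527 with slide as a random block. On 18119 features (48.8%) the arrays did not overlap between the lines. Of the features called, 1489 had a range over the gox2 arrays that exceeded the line difference. In the fit, in the slide block fit and without each array in turn, 4268 features (11.5%) passed.

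The largest rises and falls were named only among features past the threshold whose arrays did not overlap between the lines. Neither property is therefore a result about them. Most of the largest rises were loci with similar levels on the 35S::GOX2 and WT control arrays and a higher level on the gox2 control arrays. PAP85, a vicilin-like seed storage protein, measured 12.07, 12.22 and 11.64 on the gox2 control arrays against 6.17, 5.80 and 6.56 on the 35S::GOX2 control arrays. WT gave 5.48, 5.97 and 5.43. All gox2 control arrays lay far above all arrays of the other groups without Cd, and the difference was 5.80 (SE 1.28, limma adjusted p = 0.00259). The low arrays lay at or near the dimmest 25% of features, for which the files hold no detection value, so no fold is given. AT4G25580 showed a like difference of 5.82 (adjusted p = 0.00241). THA1, a threonine aldolase that splits threonine into glycine and acetaldehyde, measured 14.44, 14.46 and 14.21 against 9.26, 9.36 and 9.34. That is a difference of 5.05 (SE 0.95, adjusted p = 0.000848), while the other features of THA1 gave 2.65 and 1.21. GLYI7, a glyoxalase I family member, differed by 4.88 (adjusted p = 0.000844) and MPL1, a lipase known from the response to aphids, by 4.56 (adjusted p = 0.00132). BCAT-2, a branched-chain amino acid aminotransferase, was higher by 4.38 in one feature and 4.28 in another (adjusted p = 0.0014 and 0.00106). M17, a late embryogenesis abundant protein, was higher by 3.78 (adjusted p = 0.00414). MIOX4, a myo-inositol oxygenase, rose by 3.86 (adjusted p = 0.00881, and 0.0577 with slide as a random block). AT4G37220 was likewise past the threshold in the fit, with an adjusted p of 0.0504 under that block.

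**Figure D2:**
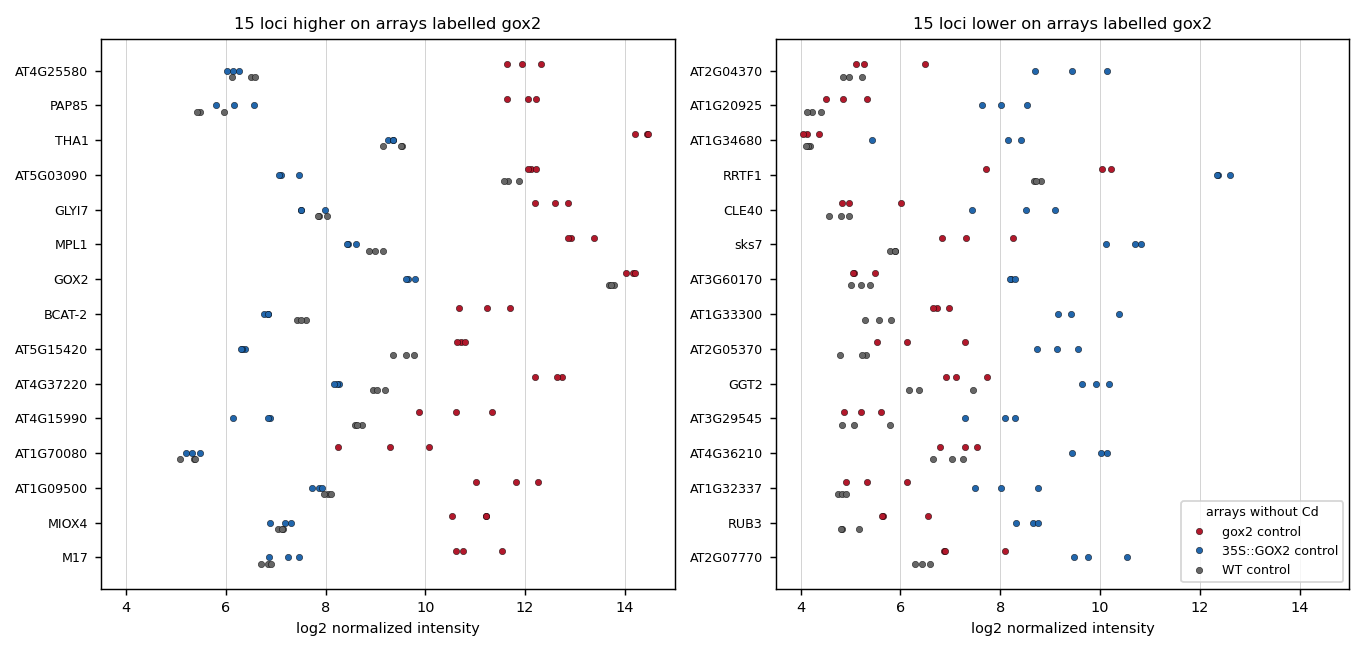
Each row is 1 of the 15 loci with the largest rise (left) or fall (right), and the horizontal axis is the log2 normalized intensity. Points are the 3 arrays of gox2 control (red), 35S::GOX2 control (blue) and WT control (gray). In the left panel WT lay near 35S::GOX2 for most loci, with GOX2, AT5G03090, AT5G15420 and AT4G15990 as exceptions, and in the right panel it lay near gox2.

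The 15 largest rises were all annotated as protein coding, against 81.2% of all loci. Arrays of other labels were high for them as well. All 15 were above the point halfway between the nearest arrays of the 2 control groups on replicate 1 of gox2 Cd 24 h and replicates 1 and 3 of 35S::GOX2 Cd 24 h, and 10 of 15 were so on these 3 alone among the 21 other arrays. PAP85 measured 11.91, 6.14 and 5.98 on the arrays of gox2 Cd 24 h, and its 35S::GOX2 Cd 24 h arrays were split in the same way. Within these Cd groups high and low arrays of a locus stood side by side, and that spread entered the SE of about 1 given above.

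**Figure D3:**
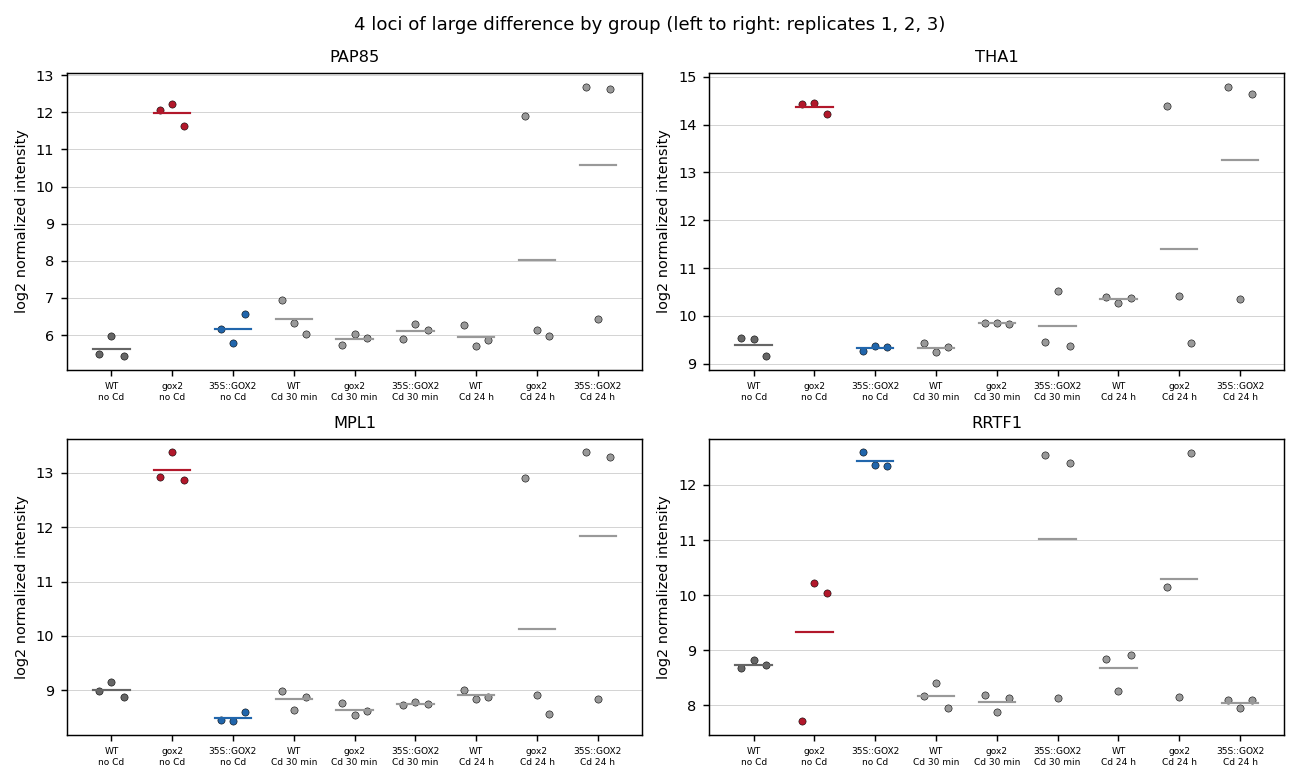
Each panel plots PAP85, THA1, MPL1 or RRTF1, with log2 normalized intensity on the vertical axis and the 9 groups on the horizontal axis. Points are arrays in the order of replicates 1, 2 and 3, and bars are group means. PAP85, THA1 and MPL1 were high on the 3 gox2 control arrays, on 1 array of gox2 Cd 24 h and on 2 arrays of 35S::GOX2 Cd 24 h.

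The largest falls were loci raised on the arrays labelled 35S::GOX2 while WT lay with gox2. AT2G04370 measured 5.28, 5.10 and 6.49 on the gox2 control arrays and 8.70, 9.44 and 10.14 on the 35S::GOX2 control arrays, with WT at 4.97, 4.86 and 5.22. The difference was -3.81 (SE 0.54, limma adjusted p = 0.000131). CLE40, a signaling peptide of the root meristem, measured 4.97, 4.84 and 6.0 against 7.43, 8.51 and 9.10, a difference of -3.08 (adjusted p = 0.000216). For both loci the 35S::GOX2 control arrays were the high ones, and a lack of overlap with the gox2 arrays was a condition for naming them. AT1G20925, for which RefSeq lists the synonym PILS1, of a family of auxin transport facilitators, differed by -3.17 (adjusted p = 0.000184). sks7, a relative of multicopper oxidases, differed by -3.08 (adjusted p = 0.00091). GGT2, a gamma-glutamyl transpeptidase that acts on glutathione, differed by -2.67 (adjusted p = 0.000113), and RUB3, a ubiquitin-related protein, by -2.63 (adjusted p = 0.000252). Of the 15 falls, 9 were annotated as protein coding (60%), 5 were pseudogenes and 1 was not in the annotation table. On the WT control arrays 11 of the 15 lay in the dimmest 25% of features, against 2 of the 15 rises. Among the dimmest 25%, 458 features were called higher and 1153 lower. As many as 14 of the 15 falls were above that halfway point on replicate 1 of WT Cd 30 min, and 7 on replicate 2.

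RRTF1, a redox-responsive ERF transcription factor, varied among the gox2 arrays. It measured 7.71, 10.23 and 10.05 there and 12.60, 12.36 and 12.34 on the 35S::GOX2 control arrays, with WT at 8.67, 8.83 and 8.72. Replicate 1 of gox2 stood apart from the others. RRTF1 is among the largest falls, so a lack of overlap between the lines was a condition for naming it. The difference was -3.11 (SE 0.94, limma adjusted p = 0.0178). The adjusted p was 0.11 without replicate 1 of gox2 control, 0.0504 without replicate 3 of 35S::GOX2 control and 0.057 with slide as a random block.

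Some loci with a narrow spread were named because they were past the threshold in the fit, in the slide block fit and without each array in turn. Passing these fits is thus no separate result for them. VSP2, a vegetative storage protein induced by JA, measured 4.67, 4.88 and 5.18 on the gox2 control arrays and 7.50, 7.73 and 7.05 on the 35S::GOX2 control arrays. The WT arrays lay between them, at 5.58, 6.22 and 5.88. The difference was -2.52 (SE 0.23, limma adjusted p = 4.72e-06), but the brighter feature of VSP2 gave -0.42 (adjusted p = 0.208). CWINV5, of the cell wall invertase family, measured 7.42, 7.25 and 7.39 against 9.39, 9.33 and 9.35, a difference of -2.00 (adjusted p = 4.09e-05). Both MAP kinase cascade members named by the rule were lower: MKK7, a MAP kinase kinase, by a difference of -0.77 (adjusted p = 1.71e-05) and NP2, a MAP kinase kinase kinase, by -0.84 (adjusted p = 2.83e-05). BGLU45, a beta-glucosidase of lignin precursors, differed by -0.98 (adjusted p = 3.49e-05). On the higher side were RABE1c, a small GTPase of secretion (1.65, adjusted p = 1.71e-05), EIF3G2, a subunit of a translation initiation factor (0.86, adjusted p = 3.95e-05), and TI2, a trypsin inhibitor (0.73, adjusted p = 5.44e-05).

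32 gene lists were then read against all features, of which 15.4% were higher and 13.5% lower, with a median difference of 0.02. The counts and medians describe the lists and were not tested against other genes. In the list for dark and sugar starvation, 7 of 14 members were higher on the arrays labelled gox2 and none lower, with a median difference of 0.89. DIN2, a beta-glucosidase induced in darkness, measured 12.75, 13.57 and 13.23 on the gox2 control arrays against 9.61, 9.73 and 9.65 on the 35S::GOX2 control arrays. All 3 gox2 arrays were higher, by 3.52 on average (SE 0.96, limma adjusted p = 0.01). ASN1, an asparagine synthetase, differed by 1.64 (adjusted p = 0.0085, and 0.0544 with slide as a random block), and IVD, a dehydrogenase of leucine breakdown, by 1.64 (adjusted p = 0.00205). The mean of this list per array, relative to each gene's mean, was 0.80, 0.84 and 0.60 on the gox2 control arrays. It was -0.40, -0.39 and -0.41 on those of 35S::GOX2 and -0.27, -0.24 and -0.26 on those of WT. The count of 7 was also found without each array in turn and was 5 with slide as a random block. Under Cd at 24 h the list mean was 0.71, -0.30 and -0.45 on replicates 1, 2 and 3 of gox2. On those of 35S::GOX2 it was 1.07, -0.38 and 1.07, so high means were not particular to the gox2 control arrays.

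**Figure D4:**
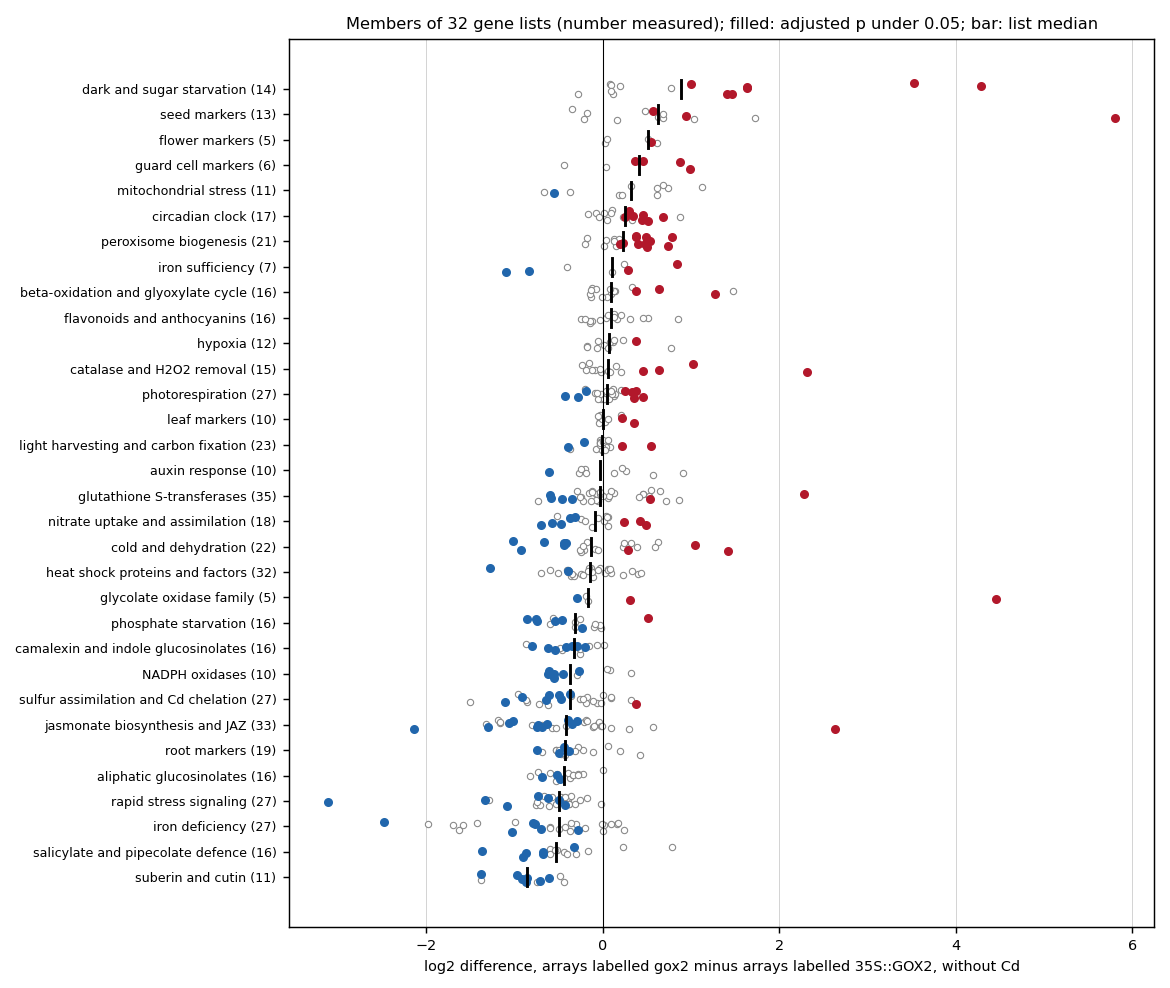
Each row is a gene list with the number of its measured members, and the horizontal axis is the log2 difference, gox2 minus 35S::GOX2, without Cd. Filled points passed an adjusted p under 0.05 (red higher, blue lower), open points did not, and the bar is the median of the list. The dark and sugar starvation list had the highest median (0.89) and the suberin and cutin list the lowest (-0.86).

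Genes of peroxisome biogenesis that passed the test were higher. Of 21 genes of peroxisome biogenesis, 12 were higher and none lower on the arrays labelled gox2, with a median of 0.23 (7 higher with slide as a random block, and 1 lower without replicate 3 of gox2 control). Against WT, 5 were higher and 2 lower on the gox2 control arrays, and none higher and 7 lower on the 35S::GOX2 control arrays. PEX11D, of the family that drives peroxisome elongation and division, measured 13.28, 13.55 and 13.34 on the gox2 control arrays and 12.65, 12.56 and 12.59 on the 35S::GOX2 control arrays. The arrays did not overlap, and the difference was 0.79 (SE 0.12, limma adjusted p = 0.000267). Its relative PEX11C (0.53, adjusted p = 0.000126) was higher as well, as was PEX13, part of the protein import docking complex (0.50, adjusted p = 0.000784). Of 16 genes of beta-oxidation and the glyoxylate cycle, 3 were higher and none lower, a share near that over all features. They included MLS, malate synthase (1.27, adjusted p = 0.00484), and ACX2, an acyl-CoA oxidase that forms H2O2 (0.38, adjusted p = 0.0051).

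Among 15 genes of catalase and H2O2 removal, 4 were higher and none lower, and 2 of the 4 encode superoxide dismutases, which form H2O2 from superoxide. CSD2, the chloroplast copper/zinc superoxide dismutase, measured 13.23, 13.68 and 13.40 on the gox2 control arrays and 11.18, 11.18 and 11 on the 35S::GOX2 control arrays. The gox2 arrays were the high ones, with a difference of 2.31 (SE 0.38, limma adjusted p = 0.000353), and WT lay at 11.61, 11.55 and 11.51. The cytosolic CSD1 differed by 1.02 (adjusted p = 9.37e-05). CAT2, the main leaf catalase, measured 14.48, 14.51 and 14.49 against 14.03, 14.01 and 14.09, a difference of 0.46 (adjusted p = 0.00368). CAT1 differed by 0.64 (adjusted p = 0.000628).

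The photorespiration list, of 27 genes, had 5 higher and 3 lower members and a median of 0.05, close to that of all features. Without replicate 2 of gox2 control only 2 were higher, and with slide as a random block 2 were higher and none lower. The lower count was 0 without replicate 1 of gox2 control and 1 without replicate 2 or 3 of gox2 control or of 35S::GOX2 control. CAT2, given above, is a member, and AT1G32470 was higher by 0.38 (limma adjusted p = 0.00123).

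NADPH oxidases, which make superoxide at the plasma membrane, were lower where they passed the test: 6 of 10 were lower and none higher on the arrays labelled gox2, with a median of -0.37. On the gox2 control arrays 6 were lower than WT and none higher. On the 35S::GOX2 control arrays 3 were lower than WT and 1 higher. RBOH F measured 10.84, 11.15 and 11.22 on the gox2 control arrays and 11.55, 11.68 and 11.64 on the 35S::GOX2 control arrays. The groups were separate, with a difference of -0.56 (SE 0.11, limma adjusted p = 0.00159), and AT1G19230 differed by -0.62. The count of lower members was 3 without replicate 2 of gox2 control, 3 without replicate 2 or 3 of 35S::GOX2 control and 2 with slide as a random block. Without replicate 3 of gox2 control 1 member was higher.

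Among genes of the suberin and cutin barrier 7 of 11 were lower and none higher, with a median of -0.86. CYP86A1, the fatty acid hydroxylase of root suberin, measured 10.49, 10.32 and 10.59 on the gox2 control arrays and 11.74, 11.90 and 11.91 on the 35S::GOX2 control arrays. WT gave 11.83, 12.19 and 12.06, beside the 35S::GOX2 arrays, and the difference was -1.38 (SE 0.32, limma adjusted p = 0.00367). FAR5, a fatty acyl reductase (-0.97, adjusted p = 0.000617), KCS2, a fatty acid elongase (-0.91, adjusted p = 0.00502), and ABCG6, a transporter of suberin monomers (-0.87, adjusted p = 0.00831), were lower too. Of 19 root markers, 4 were lower and none higher on the gox2 arrays, and the median was -0.42. Their summed intensity ran from 116567 to 127046 on the gox2 control arrays, from 146559 to 152687 on the 35S::GOX2 control arrays and from 160754 to 168405 on the WT control arrays. Their part in the suberin difference was not tested. Without replicate 3 of 35S::GOX2 control no root marker passed, without replicate 2 of that group or replicate 1 of gox2 control 1 did, and without replicate 1 of 35S::GOX2 control or replicate 2 of gox2 control 2 did. With slide as a random block 1 passed.

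Metal and nutrient genes that passed were mostly lower. In the list of 27 sulfur assimilation and metal chelation genes, 7 were lower and 1 higher, with a median of -0.37 (4 lower without replicate 1 of gox2 control). The 35S::GOX2 control arrays had 11 members higher than WT and none lower, with a median of 0.29. The gox2 control arrays had 3 higher than WT and 3 lower, with a median of -0.03. List means per array were -0.47, 0.01 and 0.08 on the gox2 control arrays and 0.27, 0.30 and 0.28 on those of 35S::GOX2. HMA2, a pump that exports Zn and Cd from cells, measured 10.28, 10.05 and 10.34 on the gox2 control arrays against 11.28, 11.20 and 11.49 on the 35S::GOX2 control arrays. The difference was -1.10 (SE 0.25, limma adjusted p = 0.00302). Its vacuolar relative HMA3 differed by -0.92 (adjusted p = 0.000136), and SULTR4;2, which releases sulfate from the vacuole, by -0.64 (adjusted p = 0.00143). SERAT2;1, a serine acetyltransferase of cysteine synthesis, was higher by 0.38 (adjusted p = 0.0072). The root marker sums above moved in the same direction as HMA2 and HMA3, and their part was not tested.

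The iron deficiency list had 6 of 27 members lower and none higher, with a median of -0.50. It held 3 lower members without replicate 1 of gox2 control or replicate 1 of 35S::GOX2 control, and 2 without replicate 2 of gox2 control, without replicate 2 or 3 of 35S::GOX2 control or with slide as a random block. CYP82C4, an enzyme of coumarin synthesis under iron deficiency, measured 7.79, 8.12 and 8.41 against 10.75, 10.69 and 10.33. Its difference of -2.48 (SE 0.91, limma adjusted p = 0.0463) was lost without each array in turn, with adjusted p up to 0.124. In the iron sufficiency list 2 of 7 members were higher and 2 lower, with a median of 0.10. The iron-sulfur protein NEET differed by 0.84 (adjusted p = 0.00043), and AT1G21140 differed by -1.09 (adjusted p = 0.00344). Without each array in turn and with slide as a random block 1 member was lower, and without replicate 2 or 3 of 35S::GOX2 control or with that block 1 was higher. In the phosphate list 6 of 16 were lower and 1 higher, with a median of -0.31, and PHT1;4, a phosphate transporter, differed by -0.75 (adjusted p = 0.00561). The lower count of that list was 2 without replicate 2 of gox2 control, 3 without replicate 2 and 2 without replicate 3 of 35S::GOX2 control, and 2 with slide as a random block. Its higher member was lost without each of these arrays, without replicate 1 of gox2 control and under the slide block.

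Defense and stress genes that passed were mainly lower on the arrays labelled gox2 than on those labelled 35S::GOX2. Of 33 genes of JA biosynthesis, breakdown and JAZ repressors, 11 were lower and 1 higher, with a median of -0.42. CYP94C1, an enzyme that oxidizes the active conjugate of JA, measured 11.09, 11.46 and 11.22 on the gox2 control arrays and 12.79, 12.45 and 12.44 on the 35S::GOX2 control arrays. The WT arrays, at 10.91, 11.19 and 11.05, lay with gox2, and the difference was -1.30 (SE 0.32, limma adjusted p = 0.00526). The member that was higher was JRG21, an oxygenase that inactivates JA. It measured 11.32, 10.95 and 10.46 against 8.22, 8.51 and 8.11, with a difference of 2.63 (SE 0.38, adjusted p = 0.000166), and WT lay between at 9.47, 10.06 and 10.03. CYP94C1 and JRG21 thus differed between the lines in opposite directions. The lower count fell to 3 without replicate 1 of gox2 control, 6 without its replicate 2, 4 without replicate 1, 2 or 3 of 35S::GOX2 control and 3 with slide as a random block. The higher count was 2 without replicate 3 of gox2 control or replicate 2 of 35S::GOX2 control. Against WT, 15 members were higher and 1 lower on the 35S::GOX2 control arrays, and 5 higher and 6 lower on the gox2 control arrays. Over all features the shares against WT were 16.2% higher and 22.1% lower for 35S::GOX2, and 12.1% and 14.8% for gox2.

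Of 16 genes of salicylate and pipecolate defense, 6 were lower and none higher, with a median of -0.53. NIMIN1, a protein that binds the salicylate receptor NPR1, differed by -1.37 (limma adjusted p = 0.00254), and EDS5, the transporter of salicylate precursors, by -0.90 (adjusted p = 0.00847). The count was 2 without replicate 1 of 35S::GOX2 control, 3 without its replicate 2 or 3 and 2 with slide as a random block. Against WT, 6 members were higher and none lower on the 35S::GOX2 control arrays, and none higher and 3 lower on the gox2 control arrays. In the list for camalexin and indole glucosinolates 7 of 16 were lower and none higher, with a median of -0.32 (3 lower without replicate 1 of gox2 control). CYP79B2 and CYP79B3, which turn tryptophan into the shared precursor of both compound classes, differed by -0.80 (adjusted p = 0.00761) and -0.62 (adjusted p = 0.00663). For CYP79B3 the WT arrays (13.82, 13.73 and 13.66) lay with the 35S::GOX2 arrays (13.74, 13.83 and 13.83). Against WT, 4 members of this list were higher and none lower on the 35S::GOX2 control arrays. On the gox2 control arrays none was higher and 3 were lower.

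Rapid stress genes, such as calmodulin-like proteins and ERF and zinc finger factors, separated the gox2 arrays from each other. Of 27 such genes 7 were lower and none higher, with a median of -0.49. The mean of the list per array was -0.43 on replicate 1 of gox2 control and 0.38 and 0.37 on replicates 2 and 3, against 0.78, 0.74 and 0.77 on the 35S::GOX2 control arrays. DREB1A, a cold-response transcription factor, measured 7.84, 7.84 and 8.10 against 9.05, 8.77 and 9.21, a difference of -1.08 (limma adjusted p = 0.00304). CML37, a calmodulin-like protein, differed by -1.33 (adjusted p = 0.00855, and 0.0652 without replicate 1 of gox2 control). The lower count was 2 without replicate 1 of gox2 control, 4 without replicate 1 or 2 and 2 without replicate 3 of 35S::GOX2 control, and 2 with slide as a random block. Against WT, 23 members were higher and none lower on the 35S::GOX2 control arrays, and 4 higher and none lower on the gox2 control arrays. The list mean was -0.26 on each WT control array. Heat shock genes showed a like split of the gox2 arrays, with list means of -0.22, 0.65 and 0.46 against 0.53, 0.45 and 0.42. Of 32 such genes 2 were lower and none higher, so 6.25% were called, below the 28.9% over all features. Without replicate 1 of gox2 control 2 were higher and 1 lower. The lower count was 1 without replicate 2 of 35S::GOX2 control and with slide as a random block. AT1G52560 differed by -1.28 (adjusted p = 0.000103). Against WT, 23 heat shock genes were higher and none lower on the 35S::GOX2 control arrays. On the gox2 control arrays 13 were higher than WT and none lower.

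Markers of other organs and cell types moved with the comparison to different degrees. The 10 leaf markers had a median of 0.01, and their summed intensity was 377124 to 393998 on the gox2 control arrays and 364372 to 377419 on the 35S::GOX2 control arrays. Of 6 guard cell markers 4 were higher and none lower on the gox2 arrays, among them MUTE, a transcription factor of stomatal development (0.99, limma adjusted p = 0.000252), and HT1, a kinase of CO2 responses (0.88, adjusted p = 0.000812). Their sums ran from 8814 to 11016 against 7734 to 8167, with WT at 10555 to 10889. Without replicate 3 of gox2 control 1 guard cell marker was lower. Seed markers, led by PAP85, had 3 of 13 higher and none lower. That count was 1 without replicate 3 of 35S::GOX2 control or with slide as a random block. Their sums were 4583 to 6481 against 898 to 1046. PAP85, 1 of the loci of largest rise, made up most of the sums on the gox2 control arrays. The sums thus say little of the other seed markers. In pooled seedlings, fewer cells of a type and less RNA per cell cannot be told apart, and the part of these markers in the other differences was not tested.

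Against WT, the 2 lines differed on many features, and these comparisons share the WT control arrays. The WT and 35S::GOX2 control arrays lay on slide 1 and the gox2 control arrays on slide 3. In the comparison of gox2 with WT, line and slide thus cannot be told apart, so the 2 comparisons are not alike. On the arrays labelled gox2, 9996 features (26.9%) differed from WT, with 4505 higher (12.1%) and 5491 lower (14.8%). On the arrays labelled 35S::GOX2, 14208 (38.3%) did, with 5998 higher (16.2%) and 8210 lower (22.1%). For DIN2 the difference from WT was 4.48 on the gox2 arrays (limma adjusted p = 0.0024) and 0.96 on the 35S::GOX2 arrays (adjusted p = 0.45). For RRTF1 it was 0.59 (adjusted p = 0.67) and 3.70 (adjusted p = 0.0042). CYP86A1 stood at -1.56 (adjusted p = 0.0018) and -0.18 (adjusted p = 0.69).

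The line difference was then followed under Cd. After 30 min of Cd, 5108 features (13.8%) differed between the arrays labelled gox2 and 35S::GOX2, 2735 higher (7.37%) and 2373 lower (6.39%). That count was 1672, 9342 and 1843 without replicate 1, 2 or 3 of 35S::GOX2 Cd 30 min, 3259, 2357 and 1685 without replicate 1, 2 or 3 of gox2 Cd 30 min, and 116 with slide as a random block. Of the features called without Cd, 1756 were also called at 30 min (16.4% of the former and 34.4% of the latter), 344 with the same sign and 1412 with the opposite one. At 30 min the slides were exchanged, with gox2 on slide 1 and 35S::GOX2 on slide 3, so a turn of sign between the controls and 30 min and a difference between these slides cannot be told apart. The change of the line difference itself passed for 9734 features (26.2%) at 30 min (657 with slide as a random block) and for 11934 (32.2%) at 24 h (7325 with it). At 24 h gox2 lay on slides 2 and 3 and 35S::GOX2 on slide 3, so slide and Cd cannot be told apart there either. After 24 h of Cd 9 features (0.0242%) differed, against 7198 at an unadjusted p under 0.05. Without replicate 2 of 35S::GOX2 Cd 24 h 3196 did, and without replicate 1 or 2 of gox2 Cd 24 h 723 and 2439 did. Without replicate 1 or 3 of 35S::GOX2 Cd 24 h limma called none, with 4742 and 5573 at an unadjusted p under 0.05. With slide as a random block limma called none, with 7493 at an unadjusted p under 0.05. Without replicate 1 of gox2 control, whose spread is shared by the fit, 1077 did, and without replicate 2 or 3 of 35S::GOX2 control 4 did.

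**Figure D5:**
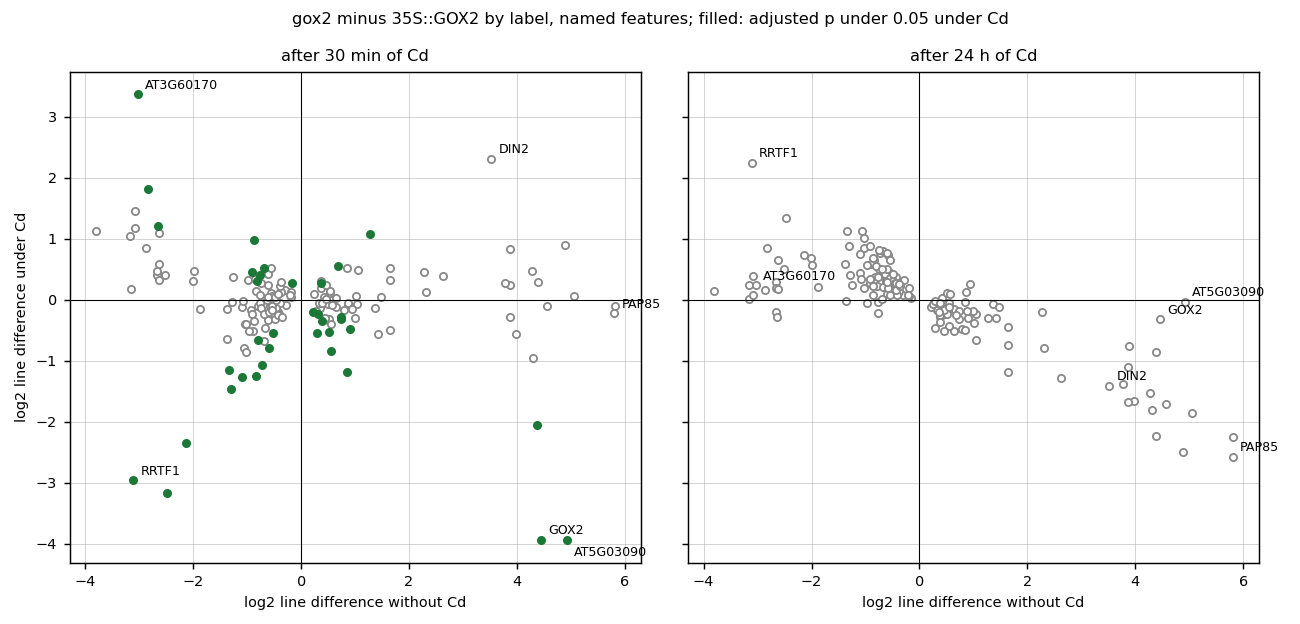
Each point is 1 of 161 named features, with the log2 line difference (gox2 minus 35S::GOX2) without Cd on the horizontal axis and after 30 min (left) or 24 h (right) of Cd on the vertical axis. Filled points passed an adjusted p under 0.05 under Cd. GOX2 and AT5G03090 fell near -3.9 at 30 min, and no named feature passed at 24 h.

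Single genes followed different courses, as the plot of the line difference under Cd shows. CYP94C1 was lower on the arrays labelled gox2 without Cd (-1.30) and at 30 min (-1.47, limma adjusted p = 0.007). NEET turned from 0.84 to -1.19 (adjusted p = 0.00021). HMA3 turned from -0.92 to 0.46 (adjusted p = 0.025). PAP85 measured a line difference of -0.23 at 30 min (adjusted p = 0.93) and -2.58 at 24 h (adjusted p = 0.27).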

How the data were processed

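RNA had been hybridized to single-color NimbleGen arrays. The authors deposited linear RMA intensities, in which background correction, normalization and a summary of the probe pairs (4 for 26409 features, 3 for 10597, fewer for the others) had been done. The software and genome build are not given in the sources used here, and limma is named in the submitters' processing notes without role or version. Deposited intensities were taken to log2 and quantile-normalized over 27 arrays. A mean for each of 9 groups was fitted with limma 3.58.1 in R 4.3.3 (jsonlite 2.0.0 read the labels), and each feature was tested by the two-sided moderated test with Benjamini-Hochberg adjustment over 37118 features (threshold 0.05). Symbols and biotypes came from RefSeq TAIR10.1, which matched 31993 of 32627 loci.

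The members and lists were chosen with earlier results of these data known. Named were the glycolate oxidase family, the 15 loci of largest rise and fall with non-overlapping arrays, up to 10 in each direction of largest moderated statistic among features past the threshold in every fit, and up to 4 list members in each direction. The results of 1 named gene are not reported here. A locus in a list was represented by its brightest feature. The 32 lists held 543 genes, of which 541 were measured. Replicates are described as independent biological replicates. The labels give the short exposure as 30 min, which the plant growth methods give differently for the array samples. Student's t-test, which the methods name for quantitative experiments such as PCR, was run as an alternative. Others were the deposited values, normalization over 6 arrays, a filter on dim features, locus means and an intensity trend. Fewer arrays, replicate or slide as a block, a fold limit and leaving out each array were used too. The test was also run on simulated data.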

Additional observations from a re-analysis of the deposited data

Results flagged for a closer look

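The line difference (gox2 minus 35S::GOX2) differed from that without Cd for 11934 features at 24 h and 9734 at 30 min. Both counts came from a test of the change itself. The slides of the lines also changed at both times, so Cd and slide cannot be told apart. For named genes that were past the threshold in the comparisons without Cd and at 30 min with opposite signs, and whose change passed an adjusted p under 0.05 in limma, the line difference at 30 min minus that without Cd was as follows. The 2 lines lay on exchanged slides in these comparisons, so slide and a turn of sign cannot be told apart. Among loci split like GOX2 it was -8.39 for GOX2, -8.87 for AT5G03090, -6.44 for AT5G15420 and 6.40 for AT3G60170, and it was -0.54 for GOX1. Loci of the largest falls gave 4.64 for AT2G05370 and 3.87 for AT4G36210. Loci with a narrow spread gave -1.39 for AT2G42975, -1.02 for TI2, 1.17 for MKK7 and 1.12 for AT3G02930. In photorespiration and photosynthesis lists the change was -0.73 for AT1G32470, -1.38 for RBCS1B and -0.43 for CA1. In nutrient and metal lists it was 1.21 for NRT2.4, -2.03 for NEET, -0.83 for FER3 and 1.37 for HMA3. The clock gene ELF4 gave -1.04 and the salicylate-responsive glucanase BGL2 gave 1.85.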

How the results depend on the processing

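GOX2 differed by 4.41 to 4.51 without 1 array and was past the threshold in every alternative run. The 10725 features called without Cd were 11001 with the deposited values, 9771 with normalization over the 6 arrays, 9922 of 27838 without the dimmest 25% of features, 9197 of 32627 with locus means, 10939 with an intensity trend, 9716 with the 6 arrays alone and 12158 with the 9 arrays without Cd, 4527 with slide as a random block (consensus correlation 0.24), 1504 with a log2 difference of at least 1, and 4662 by the methods' t-test after Benjamini-Hochberg adjustment (13715 before it). Leaving out 1 array gave 6050 to 10523 of them without Cd, 1672 to 9342 at 30 min, 0 to 3196 at 24 h, and 7177 to 10302 and 9170 to 13098 for the change of the line difference at 30 min and 24 h. The slide block gave 116 at 30 min, 0 at 24 h (7493 at an unadjusted p under 0.05 in limma), and 657 and 7325 for the change at 30 min and 24 h. The causes were not tested. Same-numbered arrays of the 2 lines deviated together with r of 0.26, 0.05 and 0.35, and differently numbered arrays with r of -0.41 to 0.10. Whether same-numbered arrays share more than a number is not settled by these values. Replicates 1 and 3 of gox2 control correlated best with their own number and replicate 2 did not. The replicate block gave 10915 calls without Cd, 5292 at 30 min, 4 at 24 h and, for the change, 9867 at 30 min and 12175 at 24 h. Of 160 named features other than GOX2, 157 passed, and 56 of them lost the call without at least 1 array, 54 with the slide block and 1 with the replicate block. With locus means GOX3 (0.24, adjusted p = 0.624) and mtLPD2 (0.12, adjusted p = 0.279) turned sign. In the filtered set 12 named features were not tested.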

Other observations

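Of 17 circadian clock genes 7 were higher and none lower on the arrays labelled gox2 (median 0.25). FKF1, a blue-light receptor of flowering time, measured 11.80, 11.74 and 11.36 on the gox2 control arrays and 10.96, 10.87 and 11.03 on the 35S::GOX2 control arrays, a difference of 0.68 (limma adjusted p = 0.00254). WT, at 11.56, 11.81 and 11.50, lay with gox2. The count was 3 without replicate 2 of gox2 control or replicate 2 of 35S::GOX2 control, 4 without replicate 3 of 35S::GOX2 control and 1 with slide as a random block. In cold and dehydration genes 6 of 22 were lower and 3 higher (median -0.13). KIN2, a cold-induced protein, measured 11.93, 11.44 and 11.60 against 12.60, 12.55 and 12.57, a difference of -0.92 (adjusted p = 0.000113), and KIN1, its neighbor of similar sequence, differed by -1.02 (adjusted p = 0.00159). The higher count was 1 without replicate 1 or 3 and 0 without replicate 2 of 35S::GOX2 control, and 0 with slide as a random block.

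Among 35 glutathione S-transferases, which conjugate glutathione to other compounds, 2 were higher and 4 lower (median -0.03). Thus 17.1% were called, below the 28.9% over all features. GSTU11 measured 9.18, 9.44 and 9.09 on the gox2 control arrays against 7.52, 6.76 and 6.60 on the 35S::GOX2 control arrays, a difference of 2.28 (limma adjusted p = 0.0024). GSTU28 differed by -0.59 (adjusted p = 0.00316). The lower count was 2 without replicate 1 of either group, without replicate 2 or 3 of 35S::GOX2 control and with slide as a random block, and the higher count was 1 without replicate 2 or 3 of gox2 control, without any 1 array of 35S::GOX2 control or under that block. The nitrate list had 3 higher and 5 lower of 18 (median -0.09), with NIA1, a nitrate reductase, at 0.43 (adjusted p = 0.00731) and NRT2.4, a nitrate transporter, at -0.69 (adjusted p = 0.00379). Without replicate 1 of gox2 control or replicate 3 of 35S::GOX2 control 3 were lower, and with slide as a random block none was higher and 3 were lower. Of 16 aliphatic glucosinolate genes 3 were lower and none higher (median -0.44), so 18.8% were called, against 28.9% over all features. The lower count was 1 without replicate 1 or 2 of gox2 control, without replicate 2 or 3 of 35S::GOX2 control or under the slide block.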
